A study of Mus musculus with 12 samples.

Results

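Interferon response genes were examined in RNA-seq libraries of mouse testis. A fixed list of 39 symbols was taken, 26 of genes known mainly as targets of type I interferon and 13 of genes known mainly as targets of interferon gamma, and 37 of them were found among the 20788 genes of the table. Mx1 and Mx2, a pair of type I genes that RefSeq annotates as transcribed pseudogenes in this assembly, were not analysed here. The 24 type I members and 13 gamma-induced members that were found all had enough reads to be tested, in a fit over 16388 genes.

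The libraries came from testes of F1 males, taken at 8 weeks of age, in 4 groups of 3. F1 males are the sons of males whose testes had been injected with a lentivirus, as the study describes it, whereas the series' design text places the virus in the F1 testes. The fathers of the lncRNA5251 knockdown group (KD) received a virus against this long non-coding RNA on the LV3 vector, and those of the 3NC group the LV3 control. The fathers of the lncRNA5251 overexpression group (OV) received a virus for its overexpression on the LV5 vector, and those of the 5NC group the LV5 control. Strain is written "IRC mouse" in the labels and ICR in the study. Every group, controls included, thus descends from virus-injected fathers, and no uninjected group was analysed here. The sources used here do not give the cells that carried the vector or whether animals were pooled, and lncRNA5251 itself was not analysed here. Nothing in the labels ties the 3 libraries of a group to separate animals, so p-values measure the spread between libraries, which may be partly technical.

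Interferons are secreted proteins that cells release on sensing viral or bacterial nucleic acid, and white blood cells release interferon gamma in an immune response. Type I interferons act through the receptor chains Ifnar1 and Ifnar2 and a complex that contains Irf9 and binds the interferon-stimulated response element in promoters of antiviral genes. Interferon gamma acts through Ifngr1 and Ifngr2, which lead to the binding of gamma-activated sites in promoters, and its targets include the transcription factor Irf1 and large families of GTPases that attack parasites and bacteria inside cells. The classes overlap, since many of these genes respond to both kinds of interferon. In the testis, interstitial macrophages, Sertoli cells and Leydig cells are known to respond to interferons.

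Promoter sequence was then searched for the motifs these pathways use. RefSeq promoter windows of build GRCm38.p6, from 250 bases before to 50 bases after a start site, were found for 28 of the 37 members, and the rest were not searched. The core of the response element was searched as GAAANNGAA on either strand (TTCNNTTTC on the other) and the gamma-activated site as TTCNNNGAA, which is its own reverse complement, and the motifs may overlap. The response element core was present in 11 of 18 type I members and 8 of 10 gamma-induced members with a window, against 9.76% of 27025 genes. The gamma-activated site was present in 4 of 18 type I members and 7 of 10 gamma-induced members, against 9.55% of all genes. Both motifs occurred in 2 type I members and 5 gamma-induced members, and neither in 5 and 0. With 1 base less between the repeats (GAANNGAA), 9 type I members and 5 gamma-induced members held a match, against 22.7% of all genes. These matches are a description of letters in a window and do not show binding.

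The stretches below are 80 bases upstream of the start site, written 5′ to 3′ along the gene, of members named by a rule on level and p-value that had the response element core there. They are shown because both classes carry the same response element core, and only some also carry the gamma-activated site. Capitals mark the motifs.
Isg15, minus strand of chr4:156200847-156200926: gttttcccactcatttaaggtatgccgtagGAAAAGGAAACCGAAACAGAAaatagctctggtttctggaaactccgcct
Rsad2, minus strand of chr12:26456528-26456607: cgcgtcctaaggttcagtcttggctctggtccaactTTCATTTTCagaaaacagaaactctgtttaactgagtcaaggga
Bst2, minus strand of chr8:71537559-71537638: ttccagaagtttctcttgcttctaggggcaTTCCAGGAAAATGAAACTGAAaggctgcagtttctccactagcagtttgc
Gbp2, plus strand of chr3:142620569-142620648: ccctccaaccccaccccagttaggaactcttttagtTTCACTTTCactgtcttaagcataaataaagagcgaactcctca
Irgm1, minus strand of chr11:48871421-48871500: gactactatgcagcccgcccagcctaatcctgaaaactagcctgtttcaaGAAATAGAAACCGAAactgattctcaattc
Igtp, plus strand of chr11:58199476-58199555: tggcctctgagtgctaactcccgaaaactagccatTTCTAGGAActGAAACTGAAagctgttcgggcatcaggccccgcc
Isg15 held 3 overlapping copies of the core, Irgm1 2 and Gbp2 and Rsad2 1. In Igtp a gamma-activated site lay upstream of the core, from 45 to 37 bases before the start, and in Bst2 the gamma-activated site overlapped the first of 2 cores. The members also lie in clusters in the genome: Ifit1, Ifit2 and Ifit3 between 34550550 and 34650009 on chromosome 19, Gbp2, Gbp3, Gbp5 and Gbp7 between 142496934 and 142638008 on chromosome 3, and Igtp and Irgm2 between 58199556 and 58222783 on chromosome 11.

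Estimated reads ranged from 12719699 to 15771655 per library. Germ cell markers summed to 12173 to 16746 CPM (reads of a gene per library total, scaled by TMM), Sertoli markers to 134 to 199 CPM and Leydig markers to 1030 to 2007 CPM, so the defining transcripts of testis were present in every library. A pair of libraries stood apart: Ptprc, which encodes the white blood cell antigen CD45, was at 94.8 CPM in 3NC replicate 2 and 71.7 CPM in KD replicate 1, and at 2.12 to 6.91 CPM in the other 10. Germ cell sums were lowest in these 2 libraries, at 12185 and 12173 CPM against 13326 to 16746 CPM in the others. Results that rest on these libraries are given with and without them. In such whole-tissue samples more cells of a type and more RNA per cell cannot be told apart.

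The level of most members was low in most libraries. By the authors' FPKM, which is per length and so allows genes to be ranked, the mean over the 12 libraries ran from 24.4 for Iigp1, an immunity-related GTPase, to 0.967 for Oas3, which makes a messenger that activates an RNA-cutting enzyme. Dhx58, a relative of the viral RNA sensors, was next at a mean FPKM of 21.6, followed by Bst2, which tethers virus particles to the cell surface, at 17.5 and by Gbp2, a guanylate-binding protein, at 13.0. Such means hide the spread: Iigp1 ranged from 2.22 to 78.8 FPKM across libraries and Gbp2 from 0.79 to 71.2, while Dhx58 stayed between 19.1 and 26.3. The order of Iigp1 and Dhx58 therefore differs from library to library, with median FPKM of 8.84 and 21.0.

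**Figure D1:**
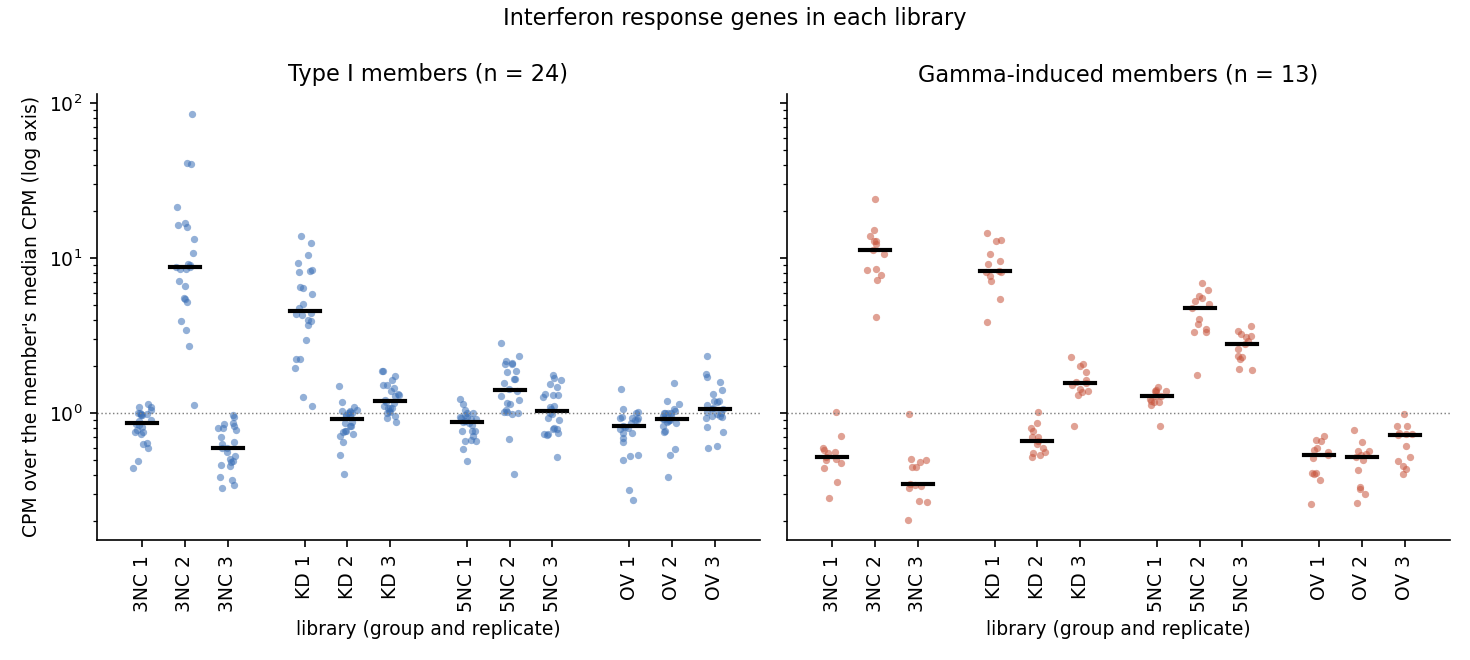
Each point is 1 member in 1 library, as its CPM divided by its own median CPM over the 12 libraries (0.1 CPM added to both, log axis), and the black bar is the median of the class; left, 24 type I members, right, 13 gamma-induced members. Both classes peak in 3NC replicate 2 and KD replicate 1, and the gamma-induced members also have a median above 1 in each 5NC library (1.28, 4.79 and 2.78) and in KD replicate 3 (1.57).

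Both classes were highest in the libraries with high Ptprc. In 3NC replicate 2 the type I members stood at a median of 8.74 times their own median over the 12 libraries, and in KD replicate 1 at 4.59 times. The gamma-induced members stood at 11.3 and 8.28 times. These were the 2 highest libraries for 22 of 24 type I members, with Dhx58 and Irf9 as the exceptions, and for 13 of 13 gamma-induced members, while this held for 13.9% of all genes tested. Summed CPM of 12 white blood cell markers was 170 and 133 in these libraries and 11.0 to 21.7 in the others. Summed CPM of 12 macrophage markers was 736 and 923 against 419 to 482. All 12 macrophage markers had reads in every library, and all 12 white blood cell markers had reads in these 2 libraries and in KD replicate 3. The part of these markers in the members' levels was not tested.

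The classes differed in how these 2 libraries compared with each other. For the gamma-induced members the ratio of 3NC replicate 2 to KD replicate 1 had a median of 1.1 and a range of 0.994 to 1.67, and 0 of 13 had a ratio over 2. For the type I members it had a median of 1.94 and a range of 1.01 to 8.16, and 9 of 24 had a ratio over 2. These ratios compare 2 single libraries of different groups and carry no replicate error. The same ratio is not given here over all genes, so whether either class is unusual in this pair was not tested.

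The type I members with the largest ratio were Ifi44 and Rsad2. Ifi44, an antiviral gene of the cytoplasm, was at 0.927, 41.8 and 0.405 CPM in 3NC replicates 1 to 3, at 5.12, 0.798 and 1.82 CPM in KD, at 0.936, 1.83 and 0.716 CPM in 5NC and at 0.855, 0.932 and 1.75 CPM in OV. A single library, 3NC replicate 2, was thus far above the other 11. Rsad2, which encodes viperin, an enzyme that makes a chain-ending nucleotide, was at 0.331, 36.8 and 0.270 CPM in 3NC, at 5.88, 0.332 and 0.473 CPM in KD, at 0.187, 0.844 and 0.215 CPM in 5NC and at 0.132, 0.333 and 0.635 CPM in OV. Its value in 3NC replicate 2 was 111 times its median over the libraries and 6.26 times that in KD replicate 1.

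Other type I members had the same order with smaller gaps. Isg15, a ubiquitin-like protein that is attached to newly made proteins, was at 1.06, 25.1 and 0.338 CPM in 3NC, at 10.9, 1.66 and 1.96 CPM in KD, at 0.749, 1.55 and 1 CPM in 5NC and at 0.526, 0.533 and 1.11 CPM in OV. Ifit2, which belongs to a family that binds foreign RNA, was at 83.5 CPM in 3NC replicate 2, 21.2 CPM in KD replicate 1 and 0.921 to 5.70 CPM elsewhere. Samhd1, an enzyme that depletes the building blocks of DNA, was near equal in the pair, at 129 and 127 CPM, against 13.6 to 32.3 CPM elsewhere. Zbp1, a nucleic acid sensor, was at 36.5 and 27.2 CPM in the pair, against a median of 2.07 CPM over the 12 libraries. In OV against 5NC its log2 fold change was -1.39 (SE 1.42, edgeR adjusted p 0.773). A fit of only those 6 libraries gave -1.38 (SE 0.35, edgeR adjusted p 0.11). Dhx58 was flat in all groups, with 49.0 ± 4.16 CPM in 3NC, 50.3 ± 3.36 CPM in KD, 51.6 ± 6.53 CPM in 5NC and 45.9 ± 1.79 CPM in OV (SD, n = 3 each).

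**Figure D2:**
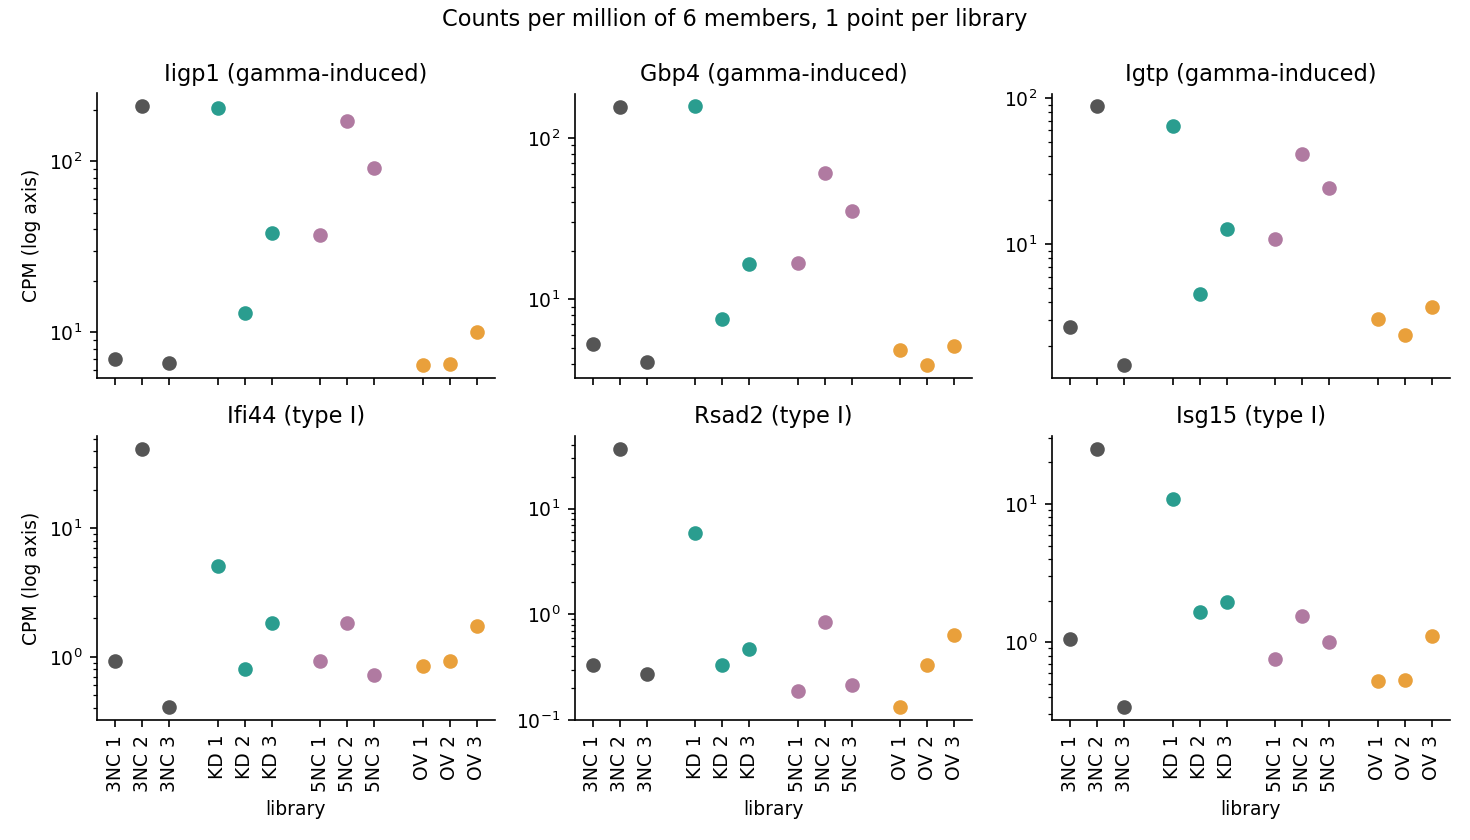
CPM (log axis) of 3 gamma-induced members (top) and 3 type I members (bottom) in each of the 12 libraries, 1 point per library, coloured by group. Iigp1, Gbp4 and Igtp are higher in every 5NC library than in any OV library, while Ifi44, Rsad2 and Isg15 overlap between these groups.

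The gamma-induced members were also high in the 5NC libraries, which had low Ptprc (2.12 to 3.31 CPM). Their class median was 1.28, 4.79 and 2.78 times their own median in 5NC replicates 1 to 3, against 0.524 and 0.348 times in 3NC replicates 1 and 3 and 0.518 to 0.718 times in OV. KD replicate 3, whose Ptprc was also low, stood at 1.57 times, above 5NC replicate 1, and KD replicate 2 at 0.657 times. The type I medians were 0.882, 1.41 and 1.03 times in 5NC. In 12 of 13 gamma-induced members and 2 of 24 type I members, every 5NC library lay above 3NC replicates 1 and 3 and above every OV library, while this held for 5.85% of all genes tested. As a share of the level in 3NC replicate 2, 5NC replicate 2 reached a median of 39% for gamma-induced members (26% to 82.3%). For type I members it reached 14.4% (2.29% to 89.9%). The mean of the 5NC libraries reached 15% to 47.9% and 1.13% to 95.9% of that level, so the choice of replicate 2 raised the gamma-induced shares. 3NC replicate 2 also enters the ratios to KD replicate 1 given above, so the 2 measures are not independent.

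**Figure D3:**
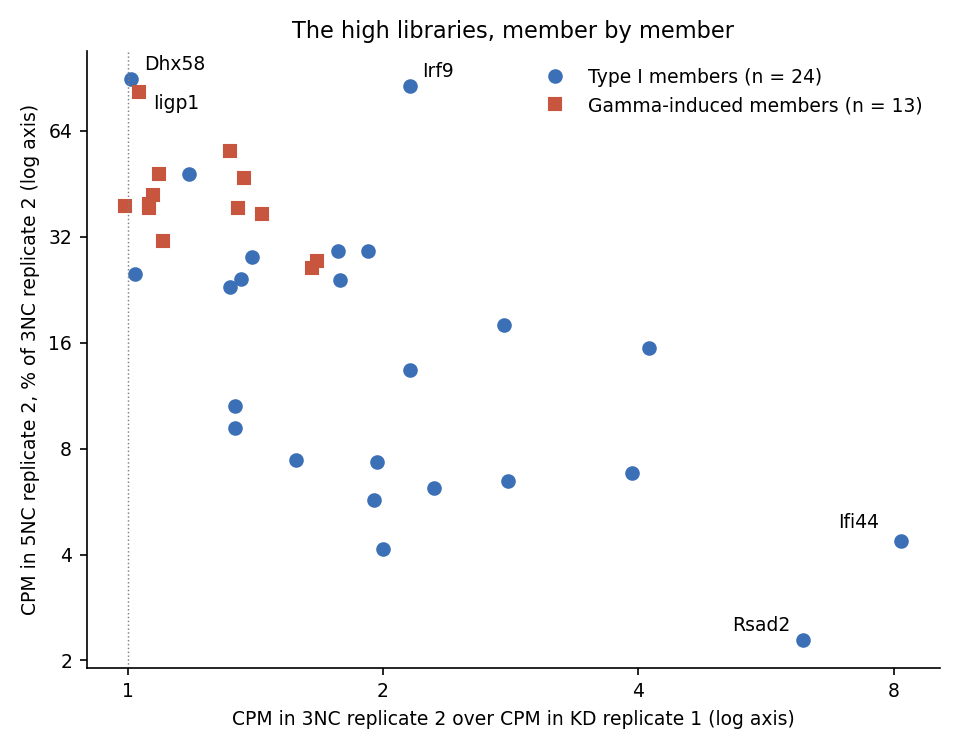
Each point is 1 member; the x axis is its CPM in 3NC replicate 2 over that in KD replicate 1 and the y axis its CPM in 5NC replicate 2 as a percentage of that in 3NC replicate 2 (both log axes). The 13 gamma-induced members (squares) gather at ratios of 0.994 to 1.67 and percentages of 26 to 82.3, and the 24 type I members (circles) spread to a ratio of 8.16 and to 2.29%. 3NC replicate 2 enters both axes, so a member high in that library alone lies at the lower right.

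The overexpression group was then compared with 5NC, its vector control. All 13 gamma-induced members were lower in every OV library than in any 5NC library, against 10.0% of the 16388 genes tested, and 2 of 24 type I members were. Their log2 fold changes ran from -3.72 to -1.06, with a median of -2.46, beside -0.28 for the type I members and -0.01 for all genes tested. In the fit of all 12 libraries, however, 0 of 37 members had an edgeR adjusted p under 0.05, while 0.311% of all genes did. At an unadjusted edgeR p under 0.05 there was 1 member, Iigp1, while 11.9% of all genes reached this level. DESeq2, which in each contrast gave no p for 8 type I members (Rsad2, Ifi44 and Isg15 among them), called 0 of the others, while 2.02% of genes with a DESeq2 p passed. It gave 6 members an unadjusted p under 0.05, while 11.8% of those genes reached this level.

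Iigp1, which helps to break the vacuoles that parasites live in, showed the largest difference of the 37 members. It was at 36.9, 172 and 91.5 CPM in 5NC and at 6.44, 6.53 and 10.0 CPM in OV. The fitted log2 fold change of -3.72 (SE 1.39) had an edgeR adjusted p of 0.324. In 3NC it was at 6.95, 209 and 6.62 CPM and in KD at 204, 13.0 and 38.2 CPM, so that OV lay at the level of 3NC replicates 1 and 3.

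Gbp4, a guanylate-binding protein, was at 16.8, 60.9 and 35.3 CPM in 5NC and at 4.87, 3.93 and 5.16 CPM in OV, with a log2 fold change of -3.02 (SE 1.45, edgeR adjusted p 0.442). Its groups did not overlap, and 5NC replicate 1 was the lowest 5NC library. Igtp, an immunity-related GTPase that is loaded on vacuole membranes, was at 10.8, 41.2 and 24.3 CPM in 5NC and at 3.09, 2.40 and 3.73 CPM in OV, with a log2 fold change of -3.05 (SE 1.41, edgeR adjusted p 0.427). The order 5NC replicate 2, then 3, then 1 was found in 12 of 13 gamma-induced members and 16 of 24 type I members, while this held for 28.0% of all genes. Irf1, which drives many of these genes, was at 8.67, 24.1 and 16.3 CPM in 5NC and at 4.14, 4.06 and 3.25 CPM in OV. Irf8, a factor of macrophage and dendritic cell formation, had the smallest difference of the 13, with 11.7, 14.9 and 16.1 CPM against 5.66, 6.59 and 8.33 CPM.

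**Figure D4:**
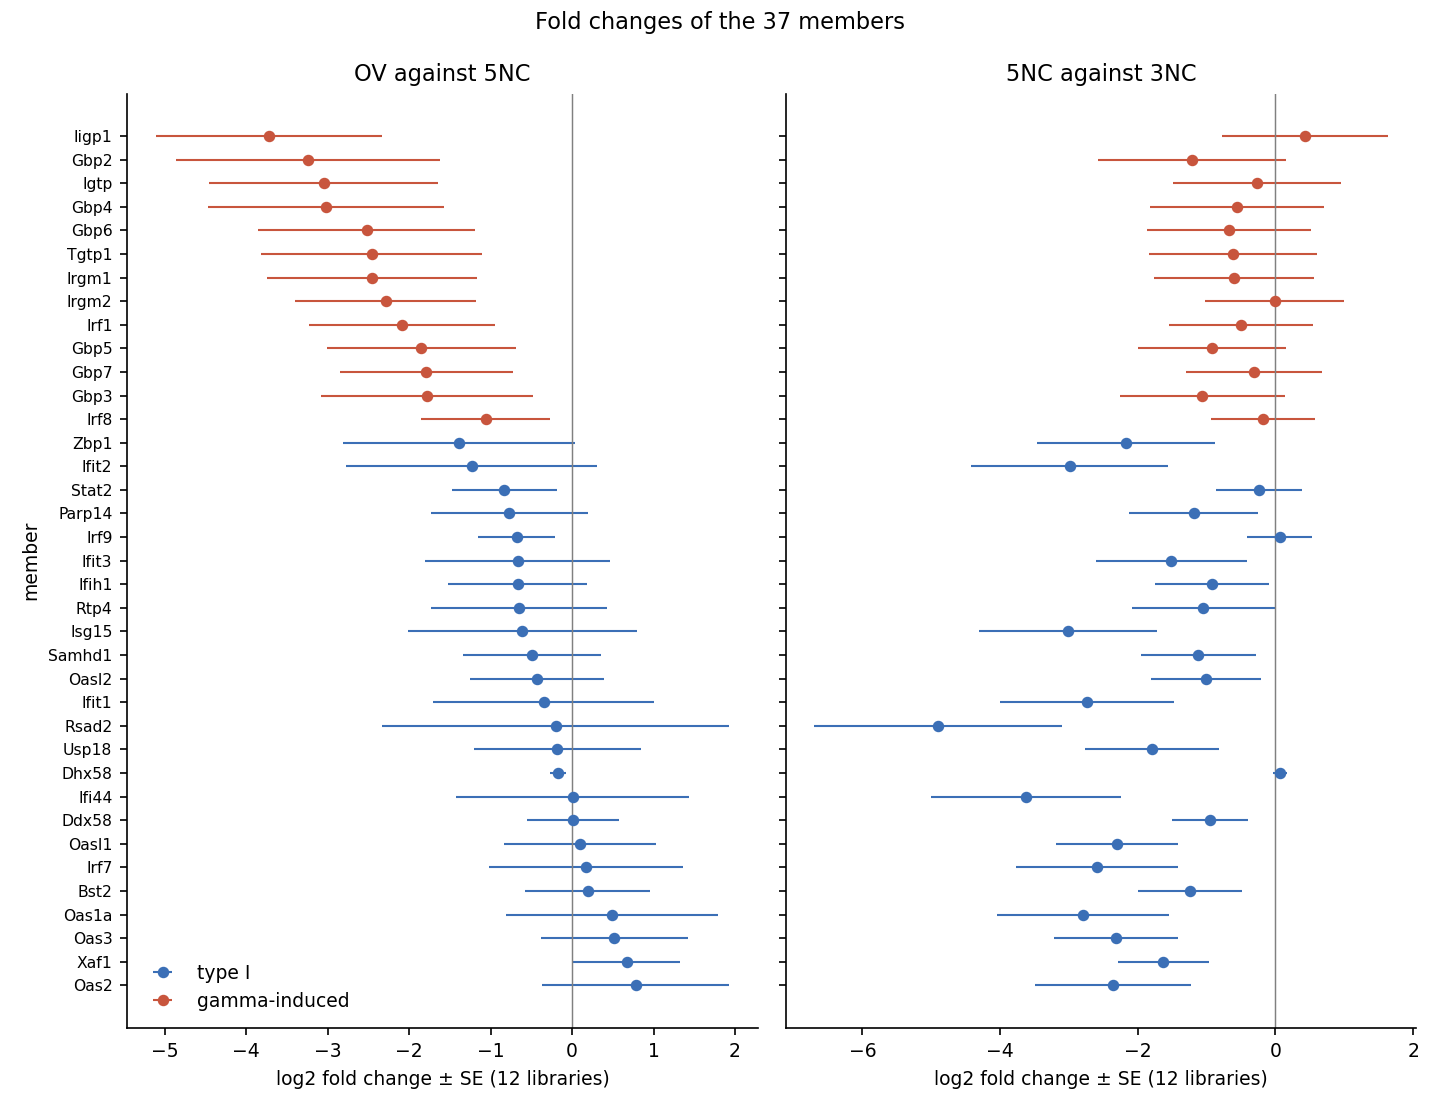
Log2 fold changes with their standard errors from the edgeR fit of 12 libraries for all 37 members, in OV against 5NC (left) and 5NC against 3NC (right). On the left the 13 gamma-induced members lie between -3.72 and -1.06 and the type I members have a median of -0.28, and on the right the type I members lie lower, with a median of -1.71.

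The call depended on which libraries set the estimate of spread. In a fit of only the 6 libraries compared, 7 of 13 gamma-induced members passed and were lower in OV (edgeR adjusted p 0.0288 to 0.0465), while 0.246% of 15852 genes passed in that direction. They were Iigp1, Gbp4, Igtp, Irgm2, Irf1, Gbp2 and Irf8, of which Gbp2 may share reads with its near copy Gbp2b. Without 3NC replicate 2 and KD replicate 1, 7 again passed as lower, with Irgm1 in place of Irf8 (edgeR adjusted p 0.0169 to 0.0487), while 0.371% of genes did. Rsad2 had too few reads to be kept in these fits, and of the other 23 type I members 0 passed (smallest edgeR adjusted p 0.0628 and 0.102). The fold change of Iigp1 was near the same, at -3.71 with 6 libraries, but its standard error was 0.52 instead of 1.39. Leaving out any single one of the 12 libraries gave 0 members, with a smallest edgeR adjusted p of 0.0939 without 3NC replicate 2. The range of genes called over all genes in those fits is given below, with the dependence on processing.

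Marker levels moved with this comparison in part. White blood cell markers summed to 12.5, 14.0 and 11.0 CPM in 5NC and 14.8, 12.7 and 11.2 CPM in OV, and macrophage markers to 433, 419 and 437 CPM against 443, 447 and 438 CPM, so the white blood cell sums overlapped and every OV library had a slightly higher macrophage sum than any 5NC library. The epididymal markers, 6 genes of the duct next to the testis, summed to 13.7, 288 and 122 CPM in 5NC and 0.986, 1.27 and 1.27 CPM in OV. Their main gene was Crisp1, at 9.86, 239 and 98.4 CPM in 5NC and 0.0793 to 0.197 CPM in OV, whereas Lcn5 was at 0 in both groups. All 4 epididymal markers tested were lower in every OV library than in any 5NC library, against 10.0% of all genes, and Spint3 passed as lower (log2 fold change -3.51, SE 0.53, edgeR adjusted p 0.0206). Lower in the same way were 1 of 12 macrophage and 1 of 7 white blood cell markers. Higher without overlap were 2 of 8 germ cell, 2 of 5 red blood cell and 1 of 12 macrophage markers. So were 1 of 6 Sertoli and 1 of 6 Leydig markers, against 11.3% of all genes. Within 5NC the epididymal sums had the same order of replicates, 2, 3, 1, as those of the gamma-induced members, which were 144, 541 and 317 CPM. In 3NC replicates 1 and 3 the epididymal sums were 40.8 and 31.8 CPM and the gamma-induced sums 54.9 and 40.9 CPM. Red blood cell markers, 6 genes, summed to 55.5, 56.8 and 48.9 CPM in 5NC and 103, 71.5 and 52.5 CPM in OV, with overlap. Among them the beta globin gene Hbb-bs was at 0, 0 and 0.0716 CPM in 5NC, at 4.41, 10.4 and 7.30 CPM in OV and at 3.22 to 14.1 CPM in 3NC and KD. Hbb-bs and its neighbour Hbb-bt passed as higher in OV (edgeR adjusted p 0.000605 and 0.0492). Both were lower in 5NC than in 3NC (edgeR adjusted p 0.000336 and 0.0284). The alpha globin gene Hba-a1 overlapped between OV and 5NC, at 19.2 to 77.1 and 29.1 to 36.6 CPM. The 5NC libraries thus stood apart in the 2 beta globin genes as well. The part of epididymal tissue in the members' levels was not tested, nor was a relation to the beta globin genes.

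**Figure D5:**
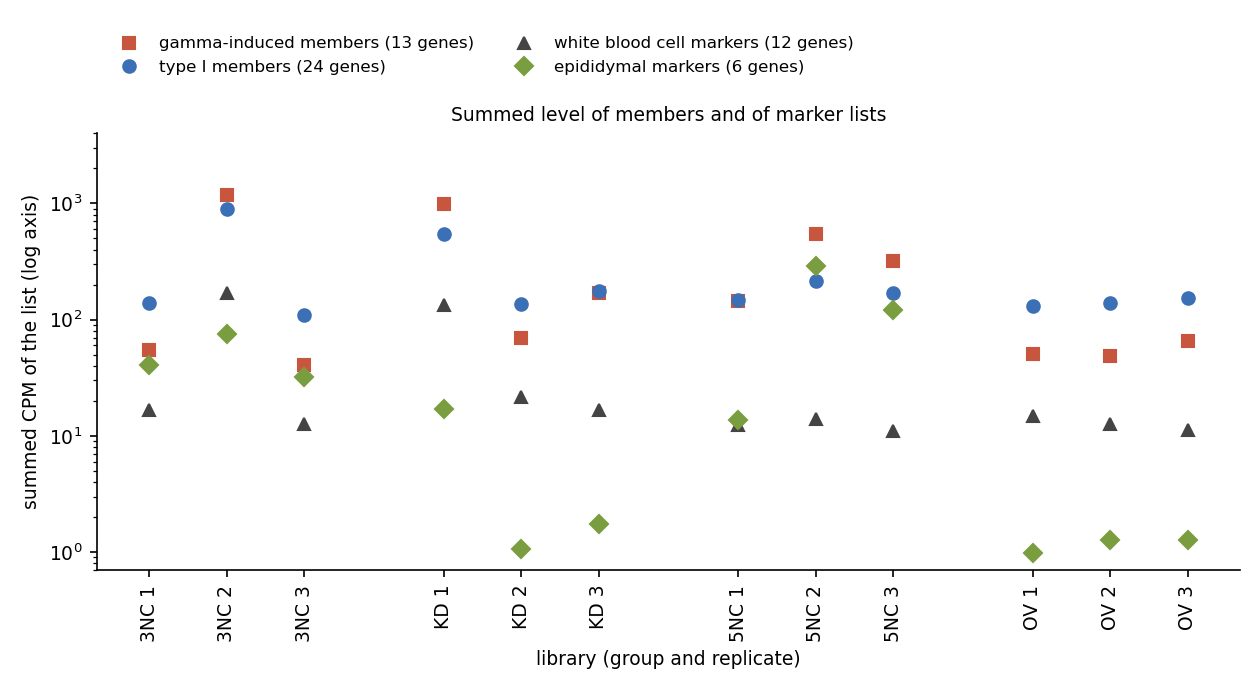
Summed CPM (log axis) of the 13 gamma-induced members, the 24 type I members, 12 white blood cell markers and 6 epididymal markers in each library. White blood cell markers are at 170 and 133 in 3NC replicate 2 and KD replicate 1 and at 11.0 to 21.7 elsewhere, and epididymal markers are highest in 5NC replicate 2 at 288.

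The vector controls were compared next. This comparison shares the 5NC libraries with that above. Between 5NC and 3NC, 0 of 37 members had an edgeR adjusted p under 0.05, while 0.128% of all genes did, and 8 type I members were lower in 5NC at an unadjusted edgeR p under 0.05, while 10.8% of all genes reached this level in either direction. These were Rsad2, Ifi44, Oasl1, Oas3, Xaf1, Isg15, Oas1a and Irf7. DESeq2 called 0 of the members for which it gave a p, while 1.07% of genes passed, and 3 were at an unadjusted p under 0.05, while 10.5% of genes were. The median log2 fold change was -1.71 for type I members and -0.56 for gamma-induced members, beside -0.02 for all genes. Rsad2, which the filter on low counts removed in each fit of 6 libraries and without both high libraries, had a log2 fold change of -4.90 (SE 1.80, edgeR adjusted p 0.392), and Oasl1, an inactive relative of the OAS enzymes, of -2.30 (SE 0.89, edgeR adjusted p 0.406). Oasl1 was at 1.85, 14.4 and 1.28 CPM in 3NC and at 1.68, 1.06 and 0.787 CPM in 5NC.

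These directions turned without 3NC replicate 2. Without it the medians were 0.67 for type I members and 2.70 for gamma-induced members, and without both high libraries 0.71 (over the 23 type I members kept) and 2.70. The gamma-induced median was also above 0 with limma on log2 CPM, at 0.84. Against 3NC replicates 1 and 3, all 3 5NC libraries were higher for 12 of 13 gamma-induced members and 7 of 24 type I members, while this held for 13.4% of all genes. In the fit without both high libraries 2 gamma-induced members passed as higher in 5NC, while 0.0487% of genes did. They were Iigp1 (log2 fold change 3.88, SE 0.66, edgeR adjusted p 0.0479) and Gbp4 (2.99, SE 0.52, edgeR adjusted p 0.0496). With all 12 libraries these fold changes were 0.43 and -0.56. The fit leaves out 3NC replicate 2, where 12 of 13 gamma-induced members were highest, and was chosen with earlier results known. White blood cell markers summed to 12.5, 14.0 and 11.0 CPM in 5NC and 16.8 and 12.6 CPM in 3NC replicates 1 and 3, and macrophage markers to 433, 419 and 437 against 471 and 442 CPM. Without overlap, 2 of 12 macrophage, 1 of 6 endothelial, 1 of 6 Leydig, 1 of 4 epididymal and 0 of 7 white blood cell markers tested were higher in 5NC (13.4% of all genes), and 1 of 12 macrophage, 2 of 8 germ cell and 2 of 5 red blood cell markers were lower (14.3% of all genes). Their part in the members' levels was not tested. The groups differ in vector and in any other way their litters differed, which cannot be told apart.

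In the knockdown group against 3NC, 0 members passed, and 0% of all genes did. No member reached an unadjusted edgeR p under 0.05, while 5.64% of all genes did. DESeq2 called 0 of the members for which it gave a p, while 0.0985% of genes passed, and 0 were at an unadjusted p under 0.05, while 5.58% of genes were. The median log2 fold change was -0.59 for type I members and -0.11 for gamma-induced members, beside -0.02 for all genes. The members with the smallest p were Ifi44 (log2 fold change -2.47, SE 1.28), Rsad2 (-2.47, SE 1.51) and Xaf1, a gene linked to cell death (-0.96, SE 0.64), all with an edgeR adjusted p of 0.764. Xaf1 was at 5.10, 28.0 and 3.92 CPM in 3NC and at 10.1, 3.85 and 5.13 CPM in KD. Each group held 1 library of high Ptprc, and the values overlapped.

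The knockdown result turned on these libraries as well. Without 3NC replicate 2 the medians were 1.75 and 3.13 for type I and gamma-induced members, and without KD replicate 1 they were -1.77 and -1.77. The gamma-induced median was also above 0 without KD replicate 2 (0.35) or replicate 3 (0.22). Without both high libraries, where Rsad2 was not kept, they were 0.57 and 1.35, and 0 members passed (smallest edgeR adjusted p 0.904). The share of all genes passing in that fit is not given here. In that case KD replicates 2 and 3 both lay above 3NC replicates 1 and 3 for 10 of 13 gamma-induced members and 10 of 24 type I members, while this held for 17.8% of all genes. Some marker genes also differed: 4 of 7 white blood cell markers tested and 5 of 12 macrophage markers were higher in the same way, while 1 of 12 macrophage markers was lower. Of the epididymal markers tested, 4 of 4 were lower, and of the Leydig markers 3 of 6 were lower and 1 higher, while 18.9% of all genes were lower. White blood cell markers summed to 21.7 and 16.8 CPM in these KD libraries and 16.8 and 12.6 CPM in the 3NC libraries, macrophage markers to 443 and 482 against 471 and 442 CPM, Leydig markers to 1289 and 1051 against 2007 and 1030 CPM and epididymal markers to 1.06 and 1.76 against 40.8 and 31.8 CPM. Their part in the members' levels was not tested. The levels in KD replicate 3 exceeded those in replicate 2 for 13 of 13 gamma-induced members and 23 of 24 type I members, while this held for 50.2% of all genes. Igtp, for example, was at 2.71 and 1.49 CPM in the 2 low 3NC libraries and at 4.52 and 12.6 CPM in KD replicates 2 and 3. The gamma-induced sums were 70.1 and 171 CPM in KD replicates 2 and 3. White blood cell sums had the reverse order there, and macrophage sums the same order.

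A further contrast in the same fit subtracted the change in the overexpression group from that in the knockdown group. It called 0 of 37 members by an edgeR adjusted p under 0.05, while 0.0244% of all genes passed, and 0 members had an unadjusted edgeR p under 0.05, while 4.63% of all genes did. DESeq2 called 0 of the members for which it gave a p, while 0.259% of genes passed, and 1 was at an unadjusted p under 0.05, while 4.30% of genes were. The median difference was 2.28 on the log2 scale for gamma-induced members and -0.53 for type I members. Iigp1 had the largest, 3.91 (SE 1.82, edgeR adjusted p 1). Without the 2 libraries of high Ptprc the medians were 3.91 and 0.91, and 0 members passed (smallest edgeR adjusted p 0.095). For this fit the share of all genes passing is not given here.

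The rest of the pathway was followed through a list of ligands, receptors, signalling proteins and other targets. Of its 46 genes tested, 0 passed in any of the 4 contrasts of the 12-library edgeR fit. At an unadjusted p under 0.05 there were 1 gene in KD, 1 in OV, 4 in 5NC against 3NC and 0 in the difference of effects, while 5.64%, 11.9%, 10.8% and 4.63% of all genes reached this level, so none of these counts was above the background share. Of those with a DESeq2 p, 1 passed, Pias1, an inhibitor of signalling, higher in OV by 0.32 on the log2 scale (SE 0.09), with an adjusted p of 0.0276, while 2.02% of all genes passed. Without the 2 libraries of high Ptprc, Cxcl10, a chemokine induced by interferon gamma, passed in OV with a log2 fold change of -3.23 (SE 0.61, edgeR adjusted p 0.0388), as 1 of 45 pathway genes kept in that fit, while 0.371% of all genes passed as lower. Both were named after their values were seen. Among the ligands, Ifng, which encodes interferon gamma, was at 0, 6.52 and 0 CPM in 3NC, at 2.84, 0.133 and 0.270 CPM in KD, at 0.0624, 0.141 and 0.0716 CPM in 5NC and at 0, 0.0666 and 0.0793 CPM in OV. It was thus above the rest in the 2 libraries of high Ptprc, and no such gap was detectable at this depth between 5NC and OV. Of 7 interferon alpha genes with a row, 6 (Ifna2, Ifna5, Ifna6, Ifna9, Ifna11 and Ifna14) were at 0 to 0.0716 CPM in every library and Ifnab was at 0.0624 to 0.592 CPM, and Ifnb1 was not analysed here.

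The receptor chains were steadier. Ifnar1 was at 33.1 to 51.8 CPM and Ifngr2 at 22 to 33.1 CPM across all libraries. Ifnar2 was at 19.6 and 15.6 CPM in the libraries of high Ptprc and at 5.78 to 8.98 CPM elsewhere, and Ifngr1 at 28.2 and 21.4 CPM against 10.6 to 12.6 CPM. In OV against 5NC their log2 fold changes were 0.11 (SE 0.14) for Ifnar1, -0.15 (SE 0.44) for Ifnar2, -0.04 (SE 0.34) for Ifngr1 and -0.09 (SE 0.13) for Ifngr2.

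Among 16 other interferon targets, 7 were lower in every OV library than in any 5NC library, against 10.0% of all genes, and their median log2 fold change was -0.90. Cxcl10, a chemokine that draws T cells, was at 1.25, 4.78 and 2.15 CPM in 5NC and 0.197, 0.266 and 0.397 CPM in OV. Ifi47, a further immunity-related GTPase, was at 4.62, 18.2 and 10.0 CPM in 5NC and 2.30, 1.60 and 1.82 CPM in OV. Neither passed in the 12-library fit (edgeR adjusted p 0.532 and 0.527). Of 14 sensing and induction genes, 1 was lower without overlap and 0 were higher, and of 5 inhibitors 0 were lower and 1 was higher. Over all 46 pathway genes 9 were lower and 2 higher without overlap, against 10.0% and 11.3% of all genes.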

How the data were processed

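Counts and FPKM came from 1 table of the whole series, in which 18 per-sample columns of other groups were not used. The authors enriched messenger RNA with oligo(dT) beads (the labels name total RNA), used SOAPaligner 2.20 for mapping to mouse genes, and deposited estimated counts per gene. The labels name build mm10. The sharing of reads among genes is not described in the sources used here, and 17.3% of genes hold a fraction in some library. The deposited FPKM values were computed by the authors, who call them RPKM in their methods.

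Estimated counts were rounded. Genes of few reads were removed with filterByExpr, and all 12 libraries were fitted with 1 coefficient per group by edgeR 4.0.16 (R 4.3.3, TMM scaling, glmQLFit with default settings and glmQLFTest). The biological coefficient of variation was 22.9%, on 8 residual and 3.37 prior degrees of freedom. Benjamini-Hochberg adjustment ran over 16388 genes, with a threshold of 0.05, and standard errors were taken from the unshrunk coefficient and its F statistic. No 2 libraries of a group agreed within sampling noise (lowest chi-square per degree of freedom 3.55). Depth was 12719699 to 15771655 estimated reads, so a value near 1 CPM rests on about 15 reads. The scripts were tested on simulated data.

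The members, lists and libraries left out were chosen with earlier results of these data known. Members named individually were, per class, the 5 of highest mean FPKM, those that passed a contrast and, per contrast, the 3 with the smallest p. Irf1, Irf8, Ifit2, Irgm2 and the other members named beside a count were chosen after their values were seen, as were Cxcl10, Ifi47 and the beta globin genes. Alternatives were RLE size factors, no filter, a replicate block, a fit of the 6 libraries of a comparison, single libraries left out, the 2 libraries of high Ptprc left out, DESeq2 1.42.0, limma-trend (limma 3.58.1) on log2 CPM and on log2 FPKM with pseudocounts of 0.1 and 1 (FPKM of at least 0.5 in 3 libraries), and calls at 0.001 with at least 1 log2 unit of change, as in the study. Gene positions and promoter windows are from RefSeq, GRCm38.p6, which is the same build as mm10. Gene IDs of 20630 of 20788 rows matched. The values of 1 pathway gene are not reported here.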

Additional observations from a re-analysis of the deposited data

How the results depend on the processing

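The count of members passing stayed at 0 in the alternatives run, which for the difference of effects did not include the fit of 6 libraries, except in 3: 7 in OV against 5NC with the 6 libraries of that comparison and 7 without the 2 libraries of high Ptprc, and 2 in 5NC against 3NC without those libraries. Without any single library it was 0. DESeq2 gave no p for 8 type I members, Rsad2 was not kept with 6 libraries or without both high libraries, and 35 members were kept on the FPKM scales.

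The class medians of KD against 3NC ranged, without 1 library each, from -1.77 to 1.75 for type I members and from -1.77 to 3.13 for gamma-induced members. Those of 5NC against 3NC ranged from -2.15 to 0.67 and from -1.12 to 2.70, and were 0.71 and 2.70 without both high libraries. Those of OV against 5NC ranged from -0.58 to -0.09 and from -2.83 to -1.86, and the gamma-induced median was -1.57 on log2(FPKM + 1). Rsad2 ranged from -4.93 to 2.86 in KD against 3NC and from -5.94 to 0.44 in 5NC against 3NC. Ifi44 ranged from -3.45 to 1.94 and from -4.17 to 0.79, and was at 0.96 and 0.78 without both high libraries. Xaf1 ranged from -1.46 to 0.49 in KD against 3NC. The reversals of these 3 members came from leaving out 3NC replicate 2, alone or with KD replicate 1. The class medians also changed sign elsewhere. The gamma-induced median of KD against 3NC was 0.35 and 0.22 without KD replicate 2 and 3, 0.78 with the replicate block, and 0.78, 0.74 and 0.44 by limma on log2 CPM, log2(FPKM + 0.1) and log2(FPKM + 1). That of 5NC against 3NC was 0.03 with the block and 0.84, 0.83 and 0.50 by limma in the same order. The type I median of KD against 3NC was 0.09 and 0.08 by limma on log2 CPM and log2(FPKM + 0.1).

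Deviations of same-numbered libraries from their group means correlated from -0.64 to 0.39, with no constant sign. Those of 3NC and KD include the libraries of high Ptprc, which differ in number, so this check cannot exclude pairing. With a replicate block the members passing stayed at 0 in every contrast, and the genes passing were 21 in OV against 5NC, 5 in 5NC against 3NC and 2 for the difference of effects. Over all genes, DESeq2 called 16 in KD against 3NC, 328 in OV against 5NC, 173 between the controls and 42 for the difference. OV against 5NC called 107 genes with 6 libraries, 159 without the 2 high libraries, 82 on log2(FPKM + 0.1) and 5 at the study's thresholds. 5NC against 3NC called 7 with 6 libraries, 45 without the 2 high libraries and 3 at the study's thresholds, and the difference called 2 at those thresholds. Without 1 library each, the genes called ranged from 0 to 12, 9 to 87, 3 to 35 and 2 to 10 in the same order. Members under 1 CPM rest on few reads, so their changes are poorly measured.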

Other observations

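Several members have near-identical copies in the genome, among which the authors' counting could split reads, so their values are uncertain. The copies outside the list showed the same libraries as highest. Tgtp2, the copy of Tgtp1, was at 2.51, 108 and 0.946 CPM in 3NC, at 65.0, 4.72 and 9.99 CPM in KD, at 10.2, 27.6 and 19.5 CPM in 5NC and at 1.64, 1.53 and 1.59 CPM in OV. Gbp10, close to Gbp6, was at 3.49, 16.0 and 9.52 CPM in 5NC and at 0.921, 0.999 and 0.317 CPM in OV. Ifit3b, the copy of Ifit3, was at 22.4 CPM in 3NC replicate 2, at 9.48 CPM in KD replicate 1 and at 0.473 to 2.30 CPM elsewhere.

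Gbp2b, close to Gbp2, was at 77.3 CPM in 3NC replicate 2 and 70.4 CPM in KD replicate 1, and at 0.811, 4.78 and 2.36 CPM in 5NC. Its 5NC values were thus a smaller share of those in the libraries of high Ptprc than for Gbp2, which was at 156 and 94.6 CPM there and at 8.30, 40.5 and 21.0 CPM in 5NC. Socs3, an inhibitor of cytokine signalling, was at 18.2 and 21.6 CPM in the 2 libraries of high Ptprc and at 0.400 to 2.13 CPM elsewhere, 5NC included (0.844 to 1.14 CPM). Nlrc5, an activator of antigen presentation genes, was at 28.6 CPM in each of the 2 libraries and at 4.52 to 10.1 CPM in the other 10. Psmb8, a subunit of the immunoproteasome, was at 3.37, 14.1 and 7.80 CPM in 5NC and at 3.33 to 4.08 CPM in OV, so that 5NC replicate 1 overlapped with OV. Psmb9, a further subunit, was at 4.06, 12.2 and 7.66 CPM in 5NC and at 2.22 to 2.66 CPM in OV, with no overlap.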
